A study of Mus musculus with 82 samples.

Results

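Saline-treated CD8 T cells that had met ovalbumin a month earlier were compared with CD8 T cells that had not, using 12 of the 82 RNA libraries of the series. All 12 hold transferred T cells with a fixed receptor for ovalbumin, called OT-I when of the CD8 lineage and OT-II when of the CD4 lineage. The 5 naive libraries are the saline OT-I libraries of the prophylactic experiment, 3 from its batch 1 and 2 from its batch 2. The 7 primed libraries are the saline libraries of the therapeutic experiment in which Cd8a counts exceeded Cd4 counts: OT-I 1, 2, 4, 5, 7 and 8, and the library labelled OT-II saline 3. The primed libraries were thus chosen by their Cd8a and Cd4 counts, and these genes are given only as a description.

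Naive-group mice received the OT-I and OT-II cells, saline 1 day later, and gave up their cells 4 days after that, with 3 mice pooled per library. Primed-group mice received the same cells, were immunized under the skin with ovalbumin in complete Freund's adjuvant, were given saline a month later and gave up their cells after another 4 days, with 1 mouse per library. No mouse of either group was given soluble ovalbumin or its glycosylated form pGal-OVA. Cells came from spleen and lymph nodes and were sorted by flow cytometry, straight into Trizol in the naive group, and in the primed group into buffer before being spun down and snap frozen. The strain label reads C57BL/6 for every naive library. It runs from C57BL/45 to C57BL/55 over the 7 primed ones, a different number for each library. For the CD4 libraries used further below it reads C57BL/6 in the naive group and runs from C57BL/47 to C57BL/59 in the primed group. The labels do not say what these numbers stand for, and whether they name different strains is not known. Age, sex and the markers used to sort are not given in the sources used here. Immunization, the age of the transfer, pooling, sort medium, batch and deposited table all differ between the groups together, so their parts in any difference cannot be told apart. For that reason the account leads with large shifts.

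A naive CD8 T cell circulates between blood and lymph nodes, held quiescent by transcription factors such as TCF1 and LEF1 and guided by homing receptors such as CCR7. After antigen it divides and its progeny gain killing proteins (granzymes and perforin), interferon gamma, receptors for inflamed tissue and receptors shared with natural killer (NK) cells, under factors such as T-bet, BLIMP1 and ID2. Memory CD8 cells that remain are usually split into central memory cells, which keep CCR7, and effector memory cells, which lose it.

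Library totals, in M (mega), were 53.9 to 68.2 M estimated counts in the naive group and 24.7 to 62.5 M in the primed group, and 14394 to 16898 genes were detected. Counts per M (CPM) below were scaled by the trimmed-mean method (TMM). Cd8a stood at 1097, 1055, 1130, 860 and 1117 CPM in the naive libraries (batch 1 libraries 1 to 3, then batch 2 libraries 1 and 2, an order kept throughout) and between 844 and 1143 in the primed ones. Cd4 was between 0.557 and 4.14 CPM in the primed libraries and at most 2.88 in 4 naive ones, but 39.8 in naive batch 2 OT-I 1. That library also carried the most B cell RNA, with a summed level of 16 B cell markers of 7133 CPM against 248, 275, 293 and 730 in the other naive libraries and 582 to 1930 in the primed ones. The count of all genes called is also given without it and without the library labelled OT-II saline 3. The first principal component, with 35.6% of the variance, separated primed from naive libraries. In bulk RNA, fewer cells of a type and less RNA per cell cannot be told apart, and p-values measure the spread between these libraries.

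The promoters of 4 genes with large shifts are shown because their transcripts are among the largest rises and falls, and because T-box, AP-1, Runx and TCF/LEF factors are known regulators of CD8 differentiation whose own transcripts are described below. They were chosen after the values were seen. Each is the RefSeq window (GRCm38.p6) of 250 bases before and 50 after the start site, 5′ to 3′ on the gene's strand: Gzmk on chr13:113180916-113181215 (minus strand), Gzmb on chr14:56262285-56262584 (minus), Gzma on chr13:113100932-113101231 (minus) and Igfbp4 on chr11:99040994-99041293 (plus). Capitals mark matches, on either strand, to the T-box site GGTGTGA, the AP-1 site TGANTCA, the Runx site TGTGGT or the TCF/LEF site CTTTGA.
Gzmk: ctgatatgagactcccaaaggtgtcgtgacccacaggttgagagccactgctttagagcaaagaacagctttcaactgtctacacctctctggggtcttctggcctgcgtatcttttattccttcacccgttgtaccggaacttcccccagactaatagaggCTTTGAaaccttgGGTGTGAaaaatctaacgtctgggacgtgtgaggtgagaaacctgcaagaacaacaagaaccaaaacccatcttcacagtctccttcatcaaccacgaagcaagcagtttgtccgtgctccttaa
Gzmb: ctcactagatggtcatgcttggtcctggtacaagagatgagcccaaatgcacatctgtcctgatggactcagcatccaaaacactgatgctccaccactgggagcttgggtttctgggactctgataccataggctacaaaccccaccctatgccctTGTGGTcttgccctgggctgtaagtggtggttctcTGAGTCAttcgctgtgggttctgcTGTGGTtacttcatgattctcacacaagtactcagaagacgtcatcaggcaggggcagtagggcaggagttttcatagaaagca
Gzma: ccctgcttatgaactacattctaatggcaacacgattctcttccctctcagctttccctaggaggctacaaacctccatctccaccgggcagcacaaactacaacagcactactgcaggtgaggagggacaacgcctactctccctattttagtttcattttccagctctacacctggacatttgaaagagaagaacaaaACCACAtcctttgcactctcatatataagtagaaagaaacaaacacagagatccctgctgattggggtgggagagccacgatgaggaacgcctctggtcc
Igfbp4: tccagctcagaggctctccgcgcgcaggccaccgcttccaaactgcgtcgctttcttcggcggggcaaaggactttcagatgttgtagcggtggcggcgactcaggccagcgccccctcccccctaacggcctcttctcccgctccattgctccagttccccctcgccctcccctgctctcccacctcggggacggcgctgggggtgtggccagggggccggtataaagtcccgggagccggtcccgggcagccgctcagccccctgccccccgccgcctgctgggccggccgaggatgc

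The Gzmk window held 1 T-box match at position -75 and 1 TCF/LEF match at -88 from the start site. In the Gzmb window were 1 AP-1 match at -58 and Runx matches at -93 and -34, and in that of Gzma 1 Runx match at -50. Igfbp4 had no match to these 4 strings. The matches shown do not overlap each other. Of the 5 windows found for the 10 top rises named below, 1 held the T-box string, 1 the AP-1 string, 2 the Runx string and 2 the TCF/LEF string; of the 8 found for the 10 top falls, 1 held the AP-1 string and 0 any of the others. Over all 32851 windows of this length, 4.0% held the T-box string, 7.8% the AP-1 string, 16.8% the Runx string and 16.0% the TCF/LEF string. A match is a string in a sequence and no evidence of binding, and no binding was measured in these samples.

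Primed and naive CD8 cells differed at 3702 of 13864 genes tested (26.7%; edgeR quasi-likelihood test, adjusted p under 0.05). Of these, 1820 were higher in primed cells (13.1% of genes tested) and 1882 lower (13.6%), so 49.2% of the calls were higher. The counts given for each gene list below are to be read beside these shares of 13.1% and 13.6%. That split depends on scaling: with upper-quartile scaling 2171 genes were higher and 1463 lower, 59.7% higher. Called shifts of at least 4-fold were uneven, with 561 genes higher (4.05%) and 143 lower (1.03%). The 7 primed libraries lay entirely above the 5 naive ones at 967 genes (6.97%) and entirely below at 1185 (8.55%). For scale, the difference between the naive batches on log2(CPM + 1) reached 2 at 39 genes, and that between primed and naive cells at 291 genes. Median absolute differences were 0.24 between batches and 0.33 between groups, and the 99th percentiles 1.44 and 2.60.

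**Figure D1:**
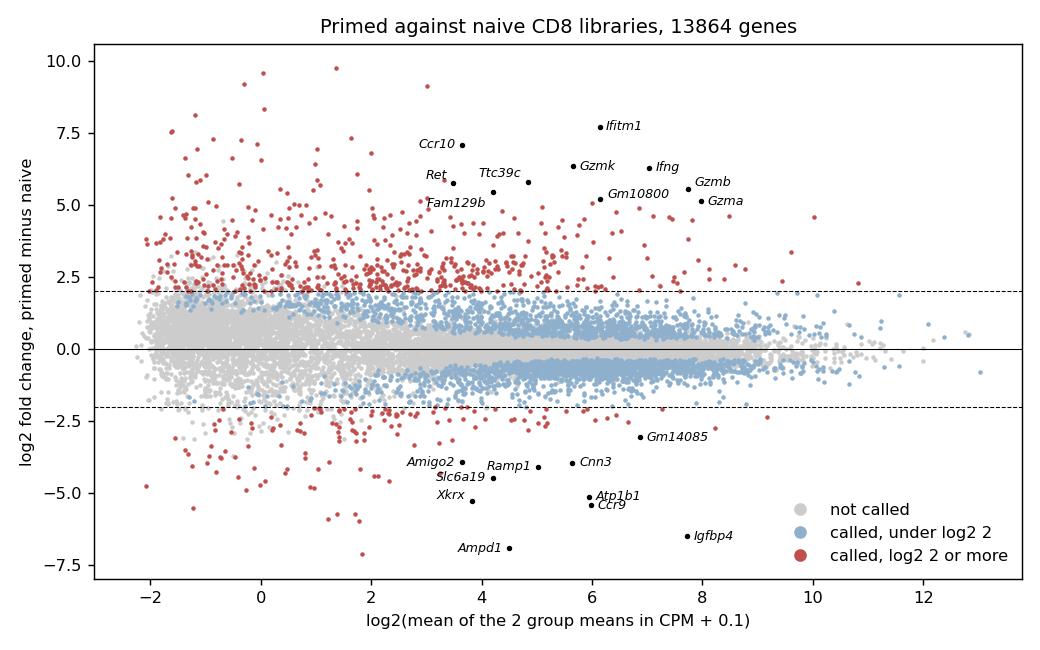
Log2 fold change (primed minus naive CD8 cells) against mean level, log2(CPM + 0.1), for the 13864 genes tested, with called genes coloured, dashed lines at 4-fold and the named top genes in black. More called genes lie beyond a 4-fold rise (561) than beyond a 4-fold fall (143).

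The highest rises by the rule for named genes (called, no overlap between groups, mean of at least 20 CPM in the higher group) were Ifitm1, Ccr10, Gzmk, Ifng, Ttc39c, Ret, Gzmb, Fam129b, Gm10800 and Gzma. Ifitm1, an interferon-inducible membrane protein gene (chromosome 7, 140967221 to 140969825), was at 1.89, 0.249, 0.113, 0.977 and 0.054 CPM in the naive libraries and at 75.3 (lowest), 123 (median) and 278 (highest) in the primed ones. All primed libraries were far above all naive ones (log2 fold change 7.71, SE 0.753, adjusted p = 4.73e-06 by edgeR). Ccr10, a chemokine receptor gene known for homing to skin (chromosome 11, 101172997 to 101175443), was at 0.0646, 0.161, 0.282, 0 and 0.414 CPM in naive cells, and at 12.2, 22.1 and 45.7 in primed cells. The groups did not overlap (log2 7.08, SE 0.655, adjusted p = 2.14e-06 by edgeR). Ret, a receptor tyrosine kinase gene, went from 0.291, 0.673, 0.263, 0 and 0.792 CPM to 11.6, 18.5 and 35.7, again without overlap (log2 5.75, SE 0.659). Ttc39c and Fam129b rose by 5.78 and 5.46 on the log2 scale. Gm10800, a predicted gene with near-identical copies that can share its reads, was the least even of the 10, from 7.40 to 336 CPM over the primed libraries against 6.92 at most in naive ones.

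**Figure D2:**
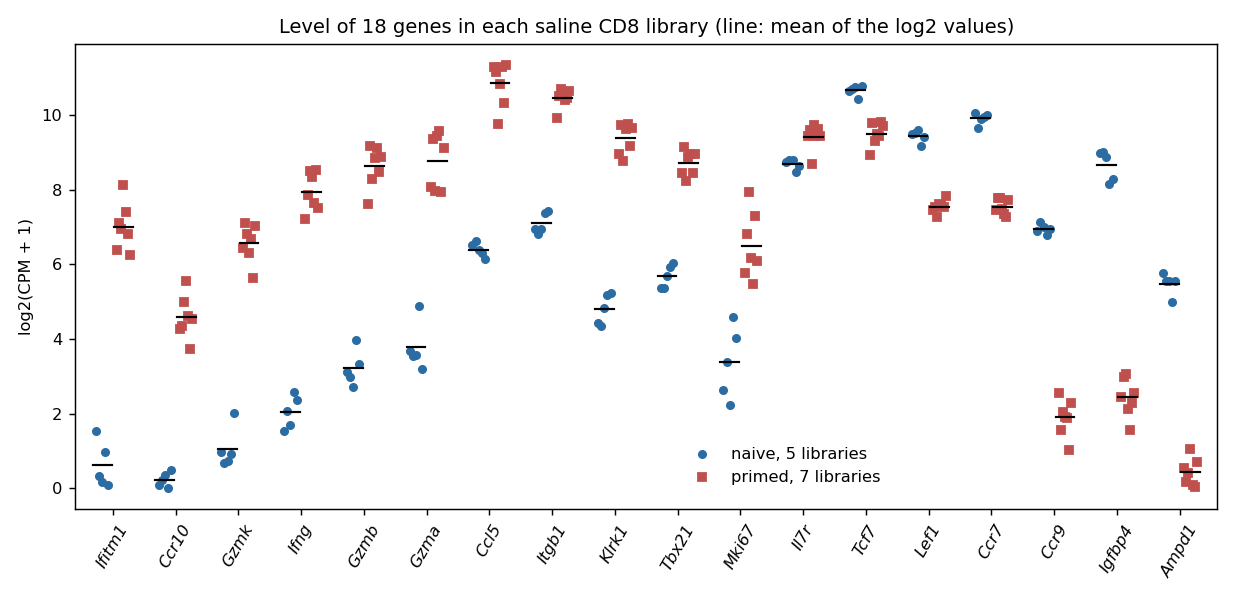
Level of 18 genes as log2(CPM + 1) in the 5 naive (circles) and 7 primed (squares) CD8 libraries, with a line at each mean of the log2 values. The groups lie apart for every gene shown except Il7r, whose lowest primed library (412 CPM) is within the naive range.

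Killing proteins, cytokines and chemokines were mostly higher in primed cells. Of 24 such genes tested, 17 were higher and none lower, with a median log2 difference of 1.59 beside 0.01 over all genes tested. Gzmk, encoding granzyme K (chromosome 13, 113171608 to 113225908), stood at 0.953, 0.586, 0.658, 0.887 and 3.08 CPM in naive libraries and at 48.9, 101 and 138 in primed ones. No primed library came near the naive range (log2 6.34, SE 0.470, adjusted p = 1.87e-07 by edgeR). Gzmb, encoding granzyme B, the main trigger of target cell death among granzymes (chromosome 14, 56258838 to 56262260), was at 7.74, 6.84, 5.55, 14.8 and 9.11 CPM in naive cells and at 196, 463 and 581 in primed cells. The lowest primed library was far above the highest naive one (log2 5.57, SE 0.345, adjusted p = 2.95e-08 by edgeR). Gzma, encoding granzyme A (chromosome 13, 113093825 to 113100981), read 11.8, 10.7, 10.8, 28.3 and 8.19 CPM in naive cells and 247, 559 and 768 in primed cells. Its highest naive value was in the B-cell-rich library, still below every primed one (log2 5.13, SE 0.448, adjusted p = 1.26e-06 by edgeR). Gzmm rose by 3.20 on the log2 scale. Prf1, encoding the pore former perforin, was already at 153, 155, 171, 145 and 167 CPM in naive cells and reached 231, 448 and 507 in primed cells. That is a far smaller rise (log2 1.30, SE 0.206). Nkg7, a granule membrane protein gene, rose by 0.82, from 837 to 1411 CPM in naive to 1700 to 2366 in primed libraries. Gzmc, Srgn, Serpinb9, Lamp1, Tnfsf10, Il10 and Ccl9 did not pass the test.

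Cytokine messages rose in cells given nothing but saline 4 days earlier. Ifng, encoding interferon gamma (chromosome 10, 118441046 to 118445892), was at 1.87, 3.22, 2.24, 4.95 and 4.16 CPM in naive libraries and at 147, 230.0 and 366 in primed ones. The lowest primed library was well above the highest naive one (log2 6.29, SE 0.358, adjusted p = 1.05e-08 by edgeR). Tnf rose by 2.50. Il2, the T cell growth factor gene, rose by 5.01 but stayed low, at most 0.240 CPM in naive and 5.01 in primed cells. Ccl5, a chemokine gene typical of memory CD8 cells (chromosome 11, 83525778 to 83530518), was at 90.2, 98.5, 82.2, 78.0 and 70.1 CPM in naive libraries and at 874, 2296 and 2592 in primed ones. The naive values were tight, and all primed ones lay well above them (log2 4.57, SE 0.285, adjusted p = 3.10e-08 by edgeR). The related chemokine genes Ccl3 and Ccl4, which can share reads with close relatives, rose by 4.39 and 4.61, and Xcl1 by 1.71. Fasl, encoding the death ligand of FAS, was at 4.30, 1.61, 5.08, 6.18 and 3.80 CPM in naive cells and at 53.3, 76.1 and 108 in primed cells (log2 4.23, SE 0.313). No library of either group crossed over.

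Genes of killer lectin receptors, which CD8 cells share with NK cells, and of signalling adaptors rose in 9 of 15 tested and fell in none (median log2 2.15). Klrk1, encoding the activating receptor NKG2D (chromosome 6, 129610323 to 129623864), was at 20.6, 19.2, 27.5, 35.2 and 37.0 CPM in naive libraries and at 434, 793 and 869 in primed ones. All primed libraries were far above all naive ones (log2 4.62, SE 0.263, adjusted p = 1.05e-08 by edgeR). Klrg1, a marker of terminal effector cells, stood at 1.13, 1.22, 1.73, 5.67 and 1.10 CPM in naive cells and at 28.7, 67.7 and 112 in primed cells. It did not overlap either (log2 4.92, SE 0.546). Klrc1 and Klrc2, encoding inhibitory NKG2A and activating NKG2C, rose by 4.50 and 3.92, and Klrd1, encoding their shared partner CD94, by 0.87. Klrc and Klra genes are near-identical families, so their reads could have been split between members. Hcst, Tyrobp and Fcer1g, the adaptor genes on the same list, did not pass the test.

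Homing and adhesion genes of memory cells rose in 16 of 24 tested and fell in none, with a median log2 difference of 1.97, and 12 of them rose at least 4-fold. Itgb1, encoding the integrin beta 1 chain (chromosome 8, 128685654 to 128733200), was at 124, 111, 121, 166 and 170.1 CPM in naive libraries and at 966, 1464 and 1650 in primed ones. The groups were far apart (log2 3.37, SE 0.178, adjusted p = 6.10e-09 by edgeR). Itga1, whose product pairs with it to bind collagen, rose by 4.54 (SE 0.241), while Itga4, Itgal and Itgb7 did not pass the test. Cxcr3, encoding the receptor for interferon-induced chemokines, was at 58.4, 53.4, 59.2, 71.4 and 108 CPM in naive cells and at 377, 433 and 668 in primed cells. Every primed library was above every naive one (log2 2.79, SE 0.207). Ccr2, a receptor gene for inflamed tissue, rose too, by 4.04, as did those of circulating effector cells, S1pr5 by 4.74 and Cx3cr1 by 4.08. Cd44, the usual surface marker of antigen-experienced cells, was at 50.4, 43.3, 39.7, 61.1 and 29.7 CPM in naive libraries and at 143, 194 and 224 in primed ones. It rose by 2.06 (SE 0.187) with no overlap. Ly6c2, encoding the memory marker Ly6C, was the most even rise of these, 322 to 376 CPM against 1229 to 1411 (log2 1.94, SE 0.107). Cxcr4, Ccr4, Ccr6, Selplg and Cd2 did not pass the test, and Cxcr6 rose by 0.79.

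Transcription factors of effector and memory cells rose in 15 of 24 and fell in 1 (median log2 0.85). Tbx21, encoding T-bet (chromosome 11, 97098071 to 97115331), was at 40.6, 40.6, 50.5, 60.1 and 65.2 CPM in naive libraries and at 301, 465 and 569 in primed ones. The ranges were well apart (log2 3.07, SE 0.203, adjusted p = 5.47e-08 by edgeR). Eomes, its T-box relative tied to long-lived memory, was at 61.0, 73.9, 65.3, 68.8 and 87.7 CPM in naive cells and 87.8, 120.0 and 138 in primed cells. The rise of 0.72 (SE 0.146, adjusted p = 0.00214 by edgeR) was small, with the lowest primed and highest naive library almost equal, and the call was lost with naive batch 2 alone as the reference. Id2, encoding an inhibitor of E proteins that favours effector cells, was at 139, 109.9, 127, 90.2 and 91.5 CPM in naive libraries and at 434, 781 and 971 in primed ones (log2 2.77, SE 0.205). Its counterpart Id3, tied to memory precursors, was at 232, 196, 196, 189.9 and 200.5 CPM in naive cells and 90.8, 161 and 204 in primed cells. The Id3 groups overlapped and the gene was not called (log2 -0.41, adjusted p = 0.0870 by edgeR). Prdm1, encoding BLIMP1, rose by 2.52, Zeb2 by 3.24, Runx2 by 3.20, Rora by 3.45 and Bhlhe40, a factor tied to cytokine production, by 4.58. Runx3 and Batf rose by 0.49 and 0.61, and Bcl6, Irf4, Irf8 and Stat4 did not pass the test. The 1 factor that fell was Tox, linked to exhausted cells (log2 -0.82, SE 0.173).

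Genes of naive and quiescent T cells fell in 16 of 24 tested, rose in 4 and had a median log2 difference of -1.07. Igfbp4, encoding a binding protein for insulin-like growth factors (chromosome 11, 99041244 to 99054392), was at 505, 517, 471, 285 and 314 CPM in naive libraries and at 1.98, 4.44 and 7.35 in primed ones. The lowest naive value was far above the highest primed one (log2 -6.49, SE 0.312, adjusted p = 4.73e-09 by edgeR). Ccr9, encoding the receptor of the thymus and gut chemokine CCL25 (chromosome 9, 123678439 to 123784330), was at 117, 140.0, 127, 110.4 and 122 CPM in naive cells and at 1.04, 2.73 and 4.91 in primed cells. No primed library kept a level near the naive one (log2 -5.41, SE 0.287, adjusted p = 6.10e-09 by edgeR). Dntt, which encodes the enzyme that adds bases during receptor rearrangement in the thymus, fell by 5.91, from 3.48 to 5.89 CPM to at most 0.302.

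The factors and homing receptors that hold the naive state fell by smaller amounts. Tcf7, encoding TCF1, was at 1611, 1671, 1713, 1380 and 1748 CPM in naive libraries and at 487, 723 and 906 in primed ones. It fell by 1.13 on the log2 scale (SE 0.150, adjusted p = 6.76e-05 by edgeR), without overlap, and stayed abundant. Lef1 (chromosome 3, 131110471 to 131224356) was at 718, 736, 778, 580 and 675 CPM in naive cells and at 153, 185 and 228 in primed cells, a fall of 1.89 (SE 0.121). Ccr7, the lymph node homing receptor gene (chromosome 11, 99144196 to 99155077), was at 1067, 806, 945, 983 and 1035 CPM in naive libraries and at 153, 179.6 and 219 in primed ones. Primed values sat in a narrow band well under the naive band (log2 -2.36, SE 0.129, adjusted p = 8.27e-09 by edgeR). Satb1 fell by 1.02, Sox4 by 1.85, Bach2 by 1.37 and Actn1 by 1.77, while S1pr1 and Foxo1 fell by only 0.74 and 0.52. Il7r, Klf2, Tob1 and Slfn2 of the same list rose. Dapl1, another gene of naive cells, missed the test (log2 -0.65, adjusted p = 0.0503 by edgeR).

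Among the 10 deepest falls by the rule were also Ampd1, Xkrx, Atp1b1, Slc6a19, Ramp1, Cnn3, Amigo2 and Gm14085. Ampd1, encoding AMP deaminase (chromosome 3, 103074014 to 103099720), was at 53.7, 45.8, 46.3, 30.7 and 46.2 CPM in naive libraries and at 0.0266, 0.318 and 1.09 in primed ones. It was almost gone from every primed library (log2 -6.91, SE 0.581, adjusted p = 7.87e-07 by edgeR). Atp1b1, a subunit gene of the sodium-potassium pump, was at 140.1, 123, 155, 81.2 and 101 CPM in naive cells and at 1.09, 3.73 and 5.63 in primed cells (log2 -5.12, SE 0.340). Ramp1, a partner of the receptor for calcitonin gene-related peptide, was the most even fall, at 79.1, 58.7, 66.2, 45.4 and 56.7 CPM in naive libraries and 2.88, 3.53 and 4.46 in primed ones. Its adjusted p was the lowest of the named genes (log2 -4.08, adjusted p = 1.09e-09 by edgeR). Slc6a19, a transporter gene of neutral amino acids, fell by 4.47, and Gm14085, which may share reads with close copies, by 3.05.

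Cytokine receptor genes moved both ways, 11 of 24 higher and 8 lower (median log2 0.27), beside 13.1% and 13.6% of all genes. Il2rb, the chain shared by the receptors of IL-2 and IL-15, was at 531, 542, 552, 540.1 and 630.4 CPM in naive libraries and at 679, 1353 and 1529 in primed ones. The rise of 1.16 (SE 0.179, adjusted p = 0.000259 by edgeR) left the groups apart, with 1 primed library close to the naive range. Il7r, the survival receptor gene of resting T cells, was at 424, 441, 440.4, 357 and 394 CPM in naive cells and at 412, 700.5 and 860 in primed cells. It rose by 0.77 (SE 0.158, adjusted p = 0.00225 by edgeR), with primed OT-I 4 inside the naive range. The genes of the IL-18 receptor, Il18r1 and Il18rap, rose by 1.66 and 3.16, and those of the IL-12 receptor, Il12rb1 and Il12rb2, by 1.60 and 1.75. Il10ra and Il2ra rose by 2.19 and 2.17. Ifngr2, a chain of the receptor for interferon gamma, fell by 2.66 (SE 0.174), from 43.0 to 73.6 CPM in naive libraries to 6.39 to 12.2 in primed ones. Il4ra, Il6ra and Il6st, receptor genes of IL-4 and IL-6, fell by 1.45, 1.34 and 1.85.

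Inhibitory receptors and exhaustion genes were higher in 13 of 19 tested and lower in 1 (median log2 1.39). Pdcd1, encoding PD-1, was at 3.86, 5.04, 3.33, 5.13 and 4.50 CPM in naive libraries and at 23.2, 36.0 and 87.9 in primed ones. The groups were separate (log2 3.25, SE 0.323, adjusted p = 4.36e-06 by edgeR), and the highest primed library stood apart from the other 6. Lag3 was at 0.469, 0.527, 0.357, 0.962 and 0.576 CPM in naive cells and at 5.99, 9.41 and 26.1 in primed cells (log2 4.37, SE 0.428). Havcr2, encoding TIM-3, rose by 4.27, Tigit by 2.86, Ctla4 by 2.55 and Tox2 by 4.64, while Btla fell by 0.56 and Tox, as above, fell.

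Mitotic genes were mostly higher in primed cells. Of 32 proliferation genes 25 were higher and 1 lower (median log2 2.31). Mki67, encoding the cycling marker Ki-67, was at 5.20, 9.40, 3.71, 23.2 and 15.3 CPM in naive libraries and at 43.2, 71.0 and 243 in primed ones. The groups did not overlap, and the primed libraries spread widely (log2 3.23, SE 0.539, adjusted p = 0.000545 by edgeR). Birc5 and Cenpe rose by 3.35 and 3.05, and Top2a by 2.42. Mcm3 to Mcm7 and Pcna did not pass the test, and Mcm2 fell by 0.84. The summed level of the list overlapped, at 1315 to 1710 CPM in naive and 985 to 3293 in primed libraries. Replication-type histone genes, whose transcripts largely lack poly(A) tails, were higher in 15 of 24 and lower in none. The counts were less steady than for other lists: with naive batch 2 alone as the reference, 9 proliferation genes and 7 histone genes were higher. Without naive batch 2 OT-I 1 the histone count was 11.

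Genes of S100 proteins, annexins, galectins and the cytoskeleton, many of them known to accompany T cell activation, were higher in 17 of 24 and lower in 1 (median log2 1.23). S100a4, encoding a calcium-binding protein of motile cells, was at 3.91, 3.75, 1.05, 6.42 and 3.19 CPM in naive libraries and at 94.8, 121 and 153 in primed ones. The groups lay far apart (log2 5.07, SE 0.350). S100a6 rose by 4.46, Lgals3 and Lgals1, encoding galectins 3 and 1, by 4.89 and 2.93, Anxa1 by 3.97 and Lmna, a nuclear lamina gene, by 3.28. Actb, encoding beta actin, fell by 0.79.

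Of 22 genes of the T cell receptor complex and its proximal kinases and adaptors, 7 were higher and 3 lower. The median log2 difference was -0.02 and none passed 4-fold. Over all genes 13.1% were higher and 13.6% lower, and the lower share of this list is close to that. Cd28, the main costimulatory receptor gene, rose by 1.18. Cd3e, Cd3d, Cd3g, Cd247, Lck, Zap70 and Ptprc did not pass the test. Of 16 early response genes of receptor signalling, 2 were higher (Nfkbid and Icos, by 1.31 and 1.36) and 3 lower, shares close to the 13.1% and 13.6% of all genes. The lower ones were Egr2, Egr3 and Myc, with falls of 0.77, 1.59 and 0.58. The call of Egr2 was lost without naive batch 2 OT-I 1, without the library labelled OT-II saline 3, and with either naive batch alone as the reference.

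Nuclear genes of oxidative phosphorylation were lower in 5 of 26 and higher in none, among them Sdha (log2 -0.79) and Atp5b (log2 -0.75). Cholesterol synthesis genes were lower in 5 of 21 and higher in none, and fatty acid oxidation genes lower in 3 and higher in 1 of 16. The lower shares in these lists stand beside 13.6% of all genes lower, and for oxidative phosphorylation and fatty acid oxidation they are close to it. Without the library labelled OT-II saline 3 the lower counts were 8 for oxidative phosphorylation and 3 for cholesterol synthesis, and 3 was also the cholesterol count without any 1 of 7 other libraries. The lower count for glycolysis became 2 without naive batch 1 OT-I 3 or naive batch 2 OT-I 2. Glycolysis genes went both ways, 3 higher and 4 lower of 17, beside 13.1% and 13.6% of all genes. Hk2 rose by 1.60 at low level, and Pdk1, which encodes a brake on mitochondrial pyruvate use, fell by 2.09 from 213 to 291 CPM in naive to 43.0 to 70.7 in primed libraries. Interferon-stimulated genes were higher in 4 and lower in 5 of 28, also close to the shares over all genes. In the survival list 7 of 22 rose and 2 fell, beside those same shares. Bcl2a1d and Bcl2a1b, near-identical copies of a survival gene, rose by 2.98 and 2.15, Bcl2l11, encoding the death factor BIM, fell by 0.77, and Bcl2 did not pass the test. Of 46 ribosomal protein genes 0 were higher and 1 lower, and of 13 mitochondrially encoded genes 0 were higher and 2 lower. Those lower counts ranged from 0 to 5 and from 1 to 6 when 1 library was left out, with the 5 without naive batch 2 OT-I 1 and the 6 without naive batch 2 OT-I 2 or the primed library labelled OT-I saline 1.

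**Figure D3:**
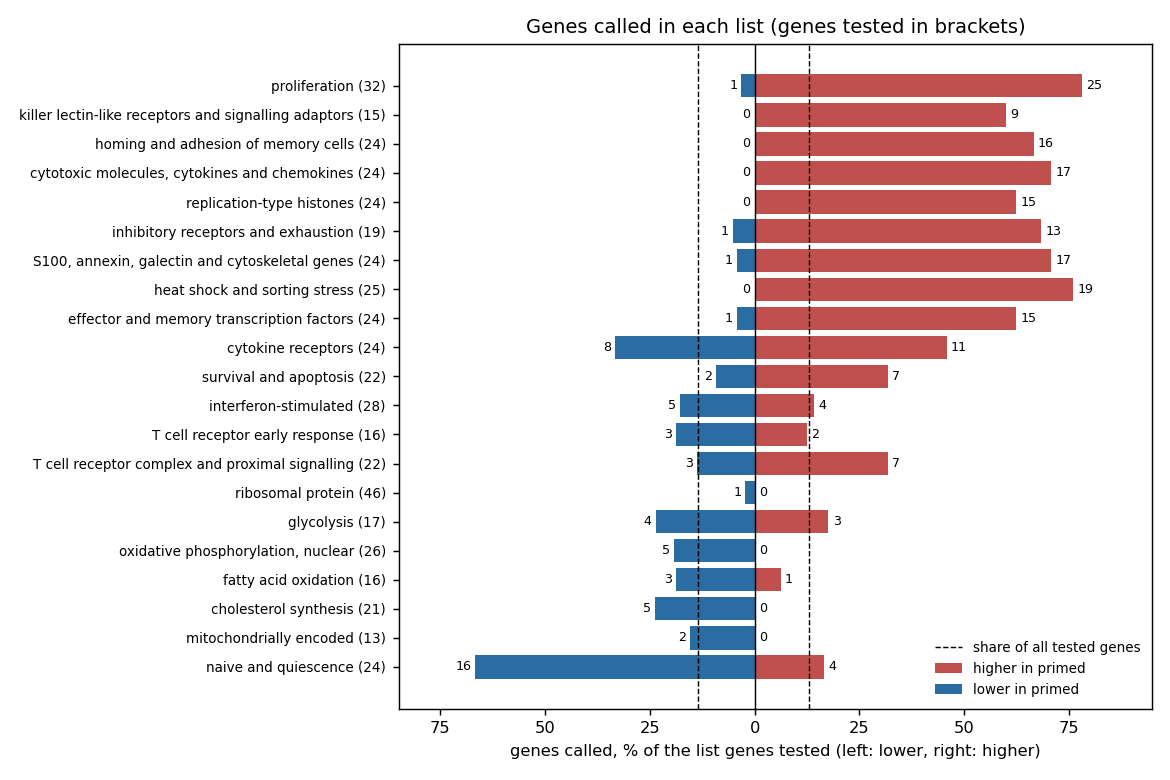
Genes called higher (right) and lower (left) in primed CD8 cells as a percentage of the genes tested in each list, with the number called beside each bar and dashed lines at the shares over all genes (13.1% and 13.6%). Effector, homing and proliferation lists reach far right, the naive list far left (16 of 24), and the ribosomal list stays near 0.

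Heat shock and sorting-stress genes were higher in 19 of 25 and lower in none (median log2 1.17), and their summed level was 13170 to 16130 CPM in naive and 24320 to 35600 in primed libraries without overlap. Fosb rose by 3.22 and Hspa1a by 2.28. This list moved together with the sort medium and with every difference above, and its part in those differences was not tested. Fos, Jun and Dusp1 on it are also genes of T cell activation.

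NK cell markers were higher in 5 of 11: Gzma, Prf1, Klre1, Klrb1c and Eomes, 4 of them on lists above. Their summed level was 265 to 347 CPM in naive and 667 to 1477 in primed libraries. Ncr1, Tyrobp and Fcer1g did not pass the test. Ncr1 was at 0.411 to 3.22 CPM in the primed libraries against 14.1 in naive batch 2 OT-I 1 and 1.08 to 2.68 in the other naive ones. Among 16 B cell markers none was called, but without naive batch 2 OT-I 1 there were 12 higher and 0 lower. Myeloid markers were higher in 1 of 18 (Itgam, also a gene of effector T cells), plasma cell markers in 0 of 6, and erythroid and platelet markers were lower in 2 of 11. Of 6 CD4 lineage markers 2 were higher (Zbtb7b and Izumo1r), of 6 stroma markers 1 was lower (Pecam1), and of 7 markers of gamma delta and innate-like T cells 1 was higher (Maf) and 2 were lower, among them Il23r. Over all genes tested 13.1% were higher and 13.6% lower. The erythroid and stroma counts lie close to the lower share, and these lists are short. The call of Il23r was lost in 7 of the 12 fits that left out 1 library each, that without the library labelled OT-II saline 3 among them. Without naive batch 2 OT-I 1, plasma cell markers were higher in 2 and myeloid markers in 2. The part of B cells and NK cells in the results was not tested. Without naive batch 2 OT-I 1, 3227 genes were called, 1689 higher and 1538 lower, and without the library labelled OT-II saline 3 there were 3880. With naive batch 1 alone as the reference 2579 genes were called, and with naive batch 2 alone 1853. Taking the cell type from the labels, so that all 8 therapeutic saline libraries labelled OT-I stand for primed CD8 cells although 2 of them hold more Cd4 than Cd8a, gave 2857. In that fit 22 of the named genes kept their sign but lost their calls. Among them were Prf1, Nkg7, Ly6c2, Eomes, Tox, Sox4, Il2rb, Il7r, Egr3 and Ramp1. Egr2 changed sign.

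**Figure D4:**
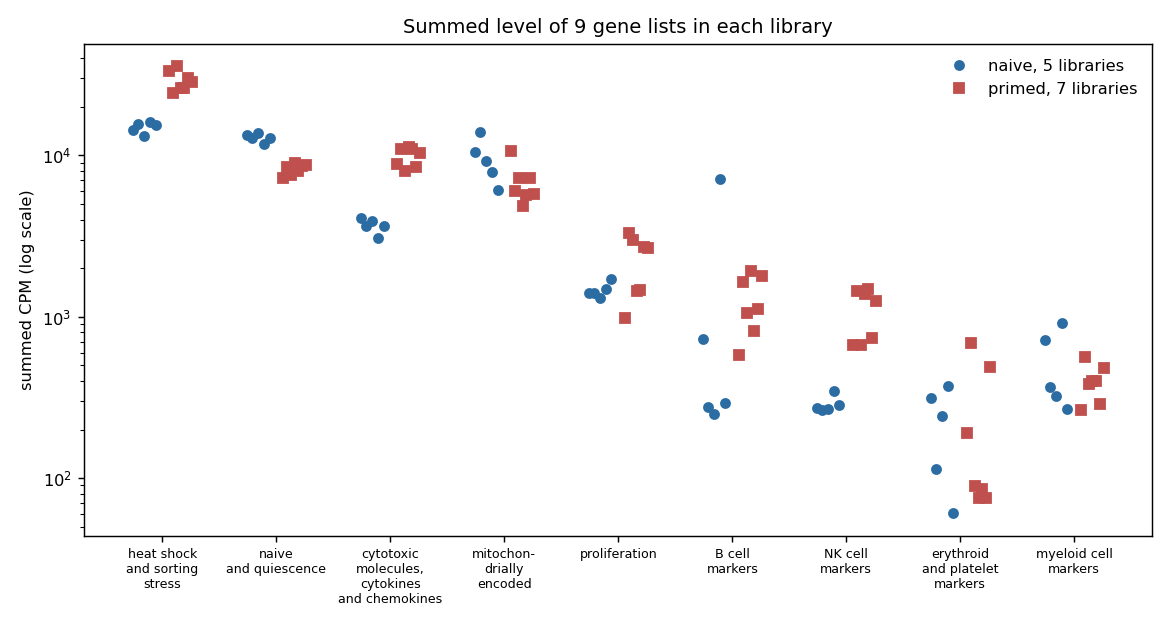
Summed CPM (log axis) of 9 gene lists in each naive (circle) and primed (square) library. Stress sums lie higher in all primed libraries (24320 to 35600 against 13170 to 16130), and 1 naive library stands alone for B cell markers at 7133.

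The same comparison was made in CD4 cells, with 5 naive OT-II saline libraries and 8 primed saline libraries in which Cd4 exceeded Cd8a, 2 of them labelled OT-I. All 25 saline libraries were fitted in 1 model. Mice received both OT-I and OT-II cells, so CD8 and CD4 libraries may share mice. The model treated all libraries as independent, and the effect of shared mice was not tested. With a block for replicate number, which need not follow the mouse, 237 differences between the CD8 and CD4 shifts were called. In CD4 cells 1457 of 14719 genes were higher (9.9%) and 1081 lower (7.34%). The shift itself differed between CD8 and CD4 cells at 282 genes (1.92%), 127 with the more positive shift in CD8 cells (0.863%) and 155 in CD4 cells (1.05%). With cell types taken from the labels instead, that count was 58; with naive batch 1 alone as the reference it was 132, with naive batch 2 alone 9, and with DESeq2 511. The stress list rose in CD4 cells too, in 16 of 25 genes; the shifts differed at 1 of them, and the median difference was 0.03. Of 24 genes of the naive list 15 fell in CD4 cells, and 3 fell further in CD8 cells.

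Killing genes and homing receptors were among those with the more positive shift in CD8 cells. Of 24 cytotoxic and cytokine genes 7 had the more positive shift in CD8 cells and none in CD4 cells (median difference 1.71). Of 24 homing genes the counts were 9 and 1. A more positive shift can also come from a fall in CD4 cells, as for Prf1 below. In CD4 cells 3 of the cytotoxic and cytokine genes and 4 of the homing genes fell, and 6 and 8 rose. Gzmk was at 0.629 to 1.63 CPM in naive and 0 to 1.52 in primed CD4 cells, so its rise was larger in CD8 cells by 6.59 (SE 0.860, adjusted p = 5.76e-05 by edgeR). Gzmb, at 1.01 to 3.88 and 0.154 to 12.5 CPM in CD4 cells, differed by 4.46 (adjusted p = 0.000839 by edgeR). Prf1 went from 22.6 to 50.0 CPM in naive CD4 cells down to 1.29 to 18.6 in primed ones while it rose in CD8 cells, a difference of 3.85 (adjusted p = 0.000236 by edgeR). Ccr10 and Ret did not rise in CD4 cells and differed by 7.41 and 6.04. Ccr7 fell by 1.01 in CD4 and by 2.36 in CD8 cells, and that difference passed too (-1.35, adjusted p = 0.0175 by edgeR). The calls for Gzmk, Gzmb, Prf1, Ccr10, Ret and Ccr7 held in all 25 fits that left out 1 library each, and were lost when cell types were taken from the labels. They were also lost with naive batch 2 alone as the reference, where 9 differences were called, 1 higher and 8 lower. With naive batch 1 alone the call for Ccr7 was lost and the other 5 held. The Ccr7 call was also lost with a replicate block and without the 2 naive libraries richest in B cell transcripts. Those for Gzmm and Rora were lost in 19 and 21 of the 25.

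Ifng, Tbx21, Cxcr3, Klrk1 and Bhlhe40 rose in both lineages, and a difference between lineages was not shown for them. Ifng went from 1.65 to 2.47 CPM in naive to 20.9 to 181 in primed CD4 cells (log2 4.97), and its difference between lineages did not pass (1.33, adjusted p = 0.342 by edgeR). Tbx21 rose by 2.78, Cxcr3 by 2.39, Klrk1 by 3.14 and Bhlhe40 by 4.97 in CD4 cells, each with no call on the difference. Ccl5 was not called in CD4 cells (log2 1.38, adjusted p = 0.131 by edgeR), and its difference of 3.19 missed the threshold (adjusted p = 0.0575 by edgeR).

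The genes with the most negative difference rose in CD4 cells. Ppic, encoding cyclophilin C, was at 2.14 to 10.2 CPM in naive and 38.1 to 82.7 in primed CD4 cells, while in CD8 cells it fell from 19.9 to 32.0 to between 7.96 and 15.7 (difference -5.09, SE 0.424). Plekho1 showed the same crossing with a difference of -4.12. Ly6c1 differed by 5.50, with a fall in CD4 cells from 307 to 525 CPM to at most 16.6, and was at 7.33 CPM or less in all CD8 libraries. Gm17571 and Cd80 also had large positive differences, 12.35 and 6.72, and neither gene was called in CD8 cells (log2 1.41 and 0.20). Naive CD4 library batch 1 OT-II 1 was far above the others at 2049 and 431 CPM. Batch 1 OT-II 2 came next at 77.65 and 52.0 CPM, and the other naive CD4 libraries were at most 2.497 and 10.8. Without batch 1 OT-II 1 the differences were 7.99 (adjusted p = 0.0211 by edgeR) and 4.13, the latter no longer called (adjusted p = 0.102 by edgeR). That fit still held batch 1 OT-II 2. Gm17571 was not called without primed OT-I saline 1.

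**Figure D5:**
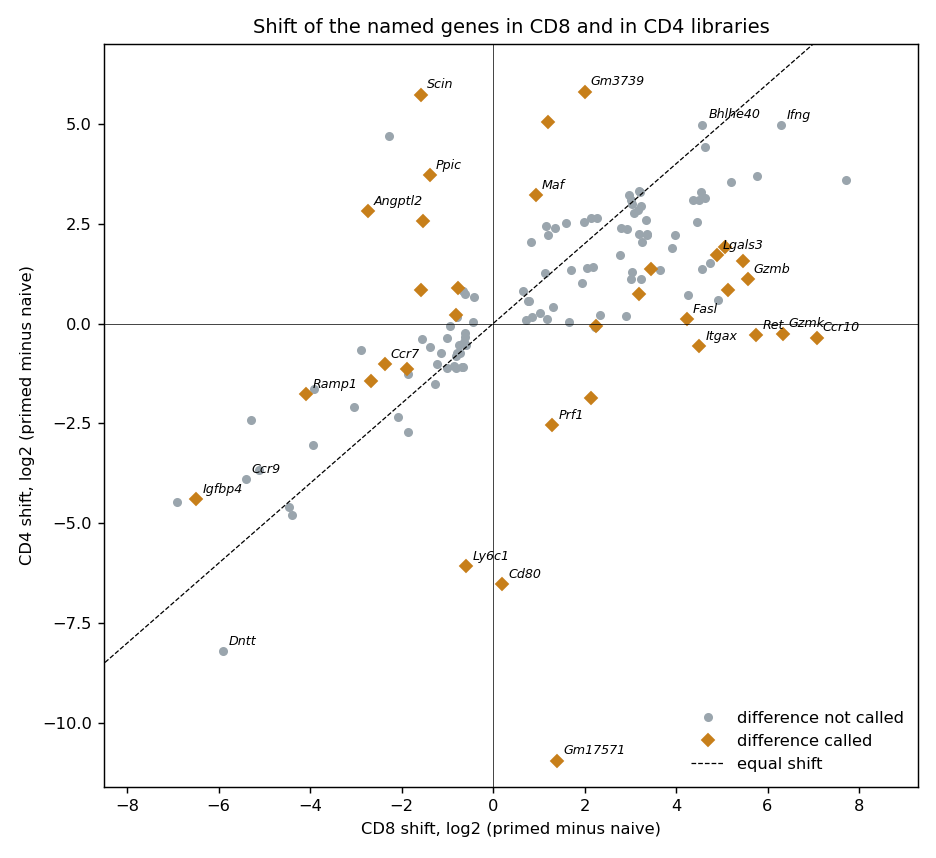
Log2 shift (primed minus naive) in CD8 libraries on the x axis and in CD4 libraries on the y axis for the named genes. Diamonds mark genes where the difference was called, and a dashed line marks equal shift. CD4 shifts and calls are from the fit of both lineages. CD8 shifts are from the fit of the CD8 libraries alone, except for genes named only for the difference between lineages, where the fit of both lineages was used. Gzmk, Ret and Ccr10 lie far right near 0 on the CD4 axis, and Igfbp4 is negative on both (-6.49 and -4.39).

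Naive OT-I cells were also sampled 4 days after plain OVA, with the same pooling and sort medium as the naive saline cells. That comparison used 5 OVA libraries against the same 5 naive saline libraries, so its values and those above share controls and are set side by side only. After OVA 549 of 13314 genes were higher (4.12%) and 259 lower (1.95%). Itgb1 averaged 1050 CPM after OVA (541 to 1423; log2 2.97), against a shift of 3.37 in primed cells. Gzmk averaged 25.8 CPM (log2 4.56, against 6.34), Gzmb 62.6 (log2 2.87, against 5.57) and Ifng 13.3 (log2 2.03, against 6.29). Ifitm1, Ccr10, Bhlhe40, Id2 and Rora were not called after OVA, with values of 0.32, 1.23, 0.38, 0.16 and 0.24.

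Genes of the naive state were also set side by side. Tcf7 and Ccr7 were not called after OVA (log2 0.08 and -0.42), and Lef1 fell by 0.37. Igfbp4 averaged 179 CPM, a fall of 1.17 against 6.49 in primed cells, and Ccr9 60.9 CPM, a fall of 0.99 against 5.41. Il7r fell by 0.68 after OVA, and Id3 rose by 0.59. Of a panel of 32 naive, effector and memory genes, 22 were higher and 8 lower in primed cells, and 16 were higher and 3 lower after OVA. Whether the size of the shift differs between primed cells and cells 4 days after OVA was not tested.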

How the data were processed

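The authors deposited estimated counts for protein-coding genes in 3 tables, 1 for each prophylactic batch and 1 for the therapeutic experiment. Per the submitters' processing notes, bcl2fastq and kallisto 0.46.1 were used with GRCm38. The step from transcripts to whole counts per gene was not stated in the sources used. The tables were joined on the 21823 genes they share. Estimated counts as deposited were fitted, without further change, with edgeR 4.0.16 (R 4.3.3; robust quasi-likelihood test), after filterByExpr and TMM scaling. Calls were made at an adjusted p (Benjamini-Hochberg) under 0.05, and a large shift was a called difference of at least 2 on the log2 scale.

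Separate fits were used. The first held the 12 CD8 saline libraries, the second all 25 saline libraries of both lineages with the difference between the CD8 and the CD4 shift as its contrast, and the third the 10 naive OT-I libraries after OVA or saline with a batch term. Primed libraries were assigned to a lineage by whether Cd8a or Cd4 had more counts. DESeq2 1.42.0 and voom of limma 3.58.1 were alternatives, with other scalings, filters, naive batches alone, labels in place of lineage, and each library left out in turn.

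Named genes were the 10 highest and 10 lowest log2 differences among called genes with no overlap between groups and a mean of at least 20 CPM in the higher group. To these came a panel of 32 genes, up to 4 called genes of each of 31 lists (575 genes, 6 of them not in the tables), and 6 genes in each direction for the difference between lineages, with no condition on overlap. Other members of the lists are named by their list. The members, lists and tests were chosen with earlier results of these data known. Coordinates are from GENCODE M21 and promoters from RefSeq, both on GRCm38. Promoter windows were found for 5 of the 10 top rises and 8 of the 10 top falls. A few genes of the lists are counted but not reported here by name. Near-identical genes may have shared reads. Reads were amplified without molecular identifiers, so depth alone does not give the errors. The fits took them from the counts and the spread between libraries together. Each SE is the absolute log2 difference divided by the square root of the F statistic of its test.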

Additional observations from a re-analysis of the deposited data

Results flagged for a closer look

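In each group of 5 or 7 libraries the highest and lowest library was tested for standing apart from the rest, for named genes and list sums. Of 310 such groups 29 had 1 library apart, and 13 of the 29 were naive batch 2 OT-I 1. The nominal rate of the rule is 1 in 20 for independent values with a normal spread. CPM values need not have such a spread and the groups share libraries, so the rate by chance is not known here. In that library Cd4 was at 39.8 CPM, Cd8a at 860, Gzma at 28.3, Klrg1 at 5.67, Itgax at 15.4, Il10ra at 93.0, Klre1 at 8.03, Klrb1c at 16.4 and Hist1h3c at 0.0301. Its summed markers were 90.6 CPM for the CD4 lineage, 7133 for B cells, 276 for plasma cells and 347 for NK cells. Naive batch 2 OT-I 2 stood apart for Gzmk (3.08 CPM), Il2rb (630.4), Klrc2 (0.126) and Hist1h1b (1.22), and naive batch 1 OT-I 1 for Id3 (232).

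Among primed libraries OT-I 4 stood apart for Il7r (412 CPM, the lowest), Pdcd1 (87.9), Lag3 (26.1), Fosb (215) and Insig1 (28.3), the last 4 as the highest. OT-I 1 did so for Itgb1 (966 CPM, the lowest), Fdps (21.0, the lowest), Klrc2 (55.5) and the summed mitochondrially encoded genes (10610). OT-I 5 had the highest Egr3 (5.02 CPM), and the library labelled OT-II saline 3 the highest Gm10800 (336).

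The shift from naive to primed differed between CD8 and CD4 cells at 33 of the genes examined (adjusted p under 0.05 by edgeR for the difference itself), given here as the CD8 minus the CD4 log2 shift. It was positive for Gm17571 (12.35), Ccr10 (7.41), Cd80 (6.72), Gzmk (6.59), Ret (6.04), Ly6c1 (5.50), Itgax (5.10), Gzmb (4.46), Gzma (4.30), Fasl (4.13), Itgam (4.00), Fam129b (3.90), Prf1 (3.85), Lgals3 (3.18), S100a4 (3.16), Gzmm (2.47), Zbtb7b (2.31) and Rora (2.09). It was negative for Scin (-7.32), Angptl2 (-5.56), Ppic (-5.09), Plekho1 (-4.12), Gm2237 (-3.83), Gm3739 (-3.80), Egr3 (-2.44), Ramp1 (-2.31), Maf (-2.27), Igfbp4 (-2.10), Egr2 (-1.66), Ccr7 (-1.35), Ifngr2 (-1.24), Tox (-1.05) and Lef1 (-0.76). Calls for Egr2, Gzmm, Rora, Fam129b and Igfbp4 were lost in 20, 19, 21, 18 and 7 of the 25 fits that left out 1 library each, Lef1 in 2, and Cd80 and Gm17571 in 1. Gm2237 and Gm3739 are near-identical copies.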

How the results depend on the processing

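The count of 3702 genes called between primed and naive CD8 cells was 4401 with DESeq2 and 3810 with voom, 3634 with upper-quartile scaling, and 2875 to 3880 when 1 library was left out. With naive batch 2 alone it fell to 1853. Replicate numbers are shared between the groups, but same-numbered libraries did not deviate together (correlations -0.05, -0.13, -0.19, -0.10 and -0.08, and no naive library correlated best with its own number), so they share only a number. A replicate block gave 1394 calls, and 523 for OVA against saline. Large shifts numbered 704 at log2 2, 1640 at log2 1 and 299 at log2 3, and 651 to 785 when 1 library was left out. The 282 differences between CD8 and CD4 shifts became 511 with DESeq2, 58 with cell types as labelled, 132 and 9 with naive batch 1 or 2 alone, and ranged from 214 to 398 when 1 library was left out. OVA against saline gave 1465 genes with DESeq2, 398 with no batch term, and 440 to 912 when 1 library was left out (440 without batch 1 OVA 2, 912 without batch 1 OVA 1). Sign changes were sought for named genes called in the main fit or in the alternative one. Values that changed sign among these were mt-Atp8 (0.014 with naive batch 2 alone), Egr2 (0.18 with all 8 libraries labelled OT-I) and, with cell types as labelled, the differences between lineages of Angptl2 (0.25), Gzmm (-0.66), Prf1 (-0.067) and Cd8b1 (-3.06). Causes of these changes were not tested. The fits on 1 naive batch also held fewer libraries, and the part of that was not tested either. The proliferation count of 25 was 14 with the block, and the histone count of 15 was 9. Immunization, batch, pooling and sort medium cannot be told apart in any of these fits. Low levels, such as Il2 and the histone genes, rest on few counts.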

Other observations

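Cd22, on the B cell list, was set beside Cd79a, another gene of that list. Cd22 was at 12.7, 7.57, 6.68, 226 and 9.03 CPM in the naive libraries and at 140.0 (lowest), 220.3 (median) and 457 (highest) in the primed ones. Cd79a was at 30.9, 11.3, 9.20, 313 and 9.83 CPM in naive libraries and at 19.0, 34.1 and 75.5 in primed ones. Neither gene passed the test between the groups (Cd22 log2 2.22, SE 0.880, adjusted p = 0.0782 by edgeR), with naive batch 2 OT-I 1 inside the primed range for Cd22. Cd22 was picked out after its values were seen, and its source was not tested.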
